A study of Mus musculus with 18 samples.

Results

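The genes described here sense or edit double-stranded RNA, and were taken by name from both deposited tables: Ifih1, Ddx58, Dhx58, Mavs, Eif2ak2, Oas1a, Oasl1, Oasl2 and Adar. All 9 were found among the 23038 genes that the tables share. Genes averaging 10 RPKM or more across the 6 groups, 6295 in all, are the genes compared below, and 7 of the 9 are among them. Adar lay just under that minimum at a mean of 9.78 RPKM and Ifih1 lay under it at 6.77 RPKM, while Eif2ak2 lay just over it at 10.1 RPKM. Values of Ifih1 and Adar are given throughout, but they enter no count of the genes compared.

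The study isolated haematopoietic stem cells (HSCs) from the hindlimb marrow of 2 kinds of C57BL/6 mice, Mettl3-deficient (Mx1-cre; Mettl3fl/fl) and Wild-type. Mettl3 is the catalytic subunit of the enzyme that writes N6-methyladenosine (m6A) into mRNA. Cells were gated as Lineage-, Sca1+, cKit+, CD150+ and CD48-, with 3000 sorted per sample, and poly(A)+ RNA was split into input RNA, RNA tagged by 1.25 µg of an antibody against m6A, and RNA left unbound. Each of the 6 groups holds 3 libraries, which the design text calls biological replicates, 18 in all. Per the labels' protocols all mice, wild-type ones included, received 10 µg pIpC by each of 5 injections and were killed 10 days after the last. pIpC is a synthetic double-stranded RNA. It acts on the sensors described here, raises interferon, and through it switches on Mx1-cre, which is active in many interferon-responsive cells and not only in HSCs. Whether the Wild-type mice carried Mx1-cre is not given in the labels.

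Long double-stranded RNA is a sign of viral infection and can also form from a cell's own transcripts. The helicases RIG-I (Ddx58) and MDA5 (Ifih1) bind it and signal through MAVS on mitochondria to induce interferon, and LGP2 (Dhx58) tunes them. PKR (Eif2ak2) halts translation by phosphorylating eIF2 alpha, OAS enzymes make oligoadenylates that activate RNase L, and ADAR1 (Adar) converts adenosine to inosine in duplexes so that they are no longer sensed. Most of these genes are themselves induced by interferon, through promoter elements with repeated GAAA letters.

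The promoter letters of the members are shown here because these genes are known as interferon-induced. Windows from 250 bases before to 50 bases after each RefSeq transcript start (GRCm38.p6) were searched on both strands for GAAA, any 2 bases and GAAA again, the core of an interferon-stimulated response element. This motif is in 1131 of 32851 mouse promoter windows (3.44%), and a shorter form without the last A, which every match of the longer one also contains, is in 2812 (8.56%). Of the 9 members, 8 had at least 1 window, 10 windows in all, and Dhx58 is named only. The longer motif was in the windows of Ifih1, Ddx58, Eif2ak2 and Oas1a. The shorter one was also at the most downstream of the Adar starts. Neither was in the windows of Mavs, Oasl1 or Oasl2, nor at the other starts of Adar. Each stretch below is printed on the gene's strand, with the motif in capitals.
Ifih1, chr2:62646206-62646233, minus strand, motif 32 bases after the start: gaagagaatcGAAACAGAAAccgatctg
Ddx58, chr4:40239804-40239833, minus strand, motif read on the opposite strand, 2 bases after the start: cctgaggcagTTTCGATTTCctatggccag
Eif2ak2, chr17:78882535-78882564, minus strand, 18 bases after the start: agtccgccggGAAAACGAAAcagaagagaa
Oas1a, chr5:120907523-120907552, minus strand, 2 overlapping matches from 20 bases before the start: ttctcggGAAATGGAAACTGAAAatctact
Adar, most downstream start, chr3:89730741-89730767, plus strand, shorter motif 33 bases after the start: tcaaggaaacGAAAGTGAActctgggg
Another match of the shorter form lay 249 bases before the same Adar start. A match of letters is a description of the window, not a site shown to be bound.

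Every RPKM (reads per kilobase of gene and per 1e6 reads) below is the authors' mean of 3 libraries, so no replicate error can be given and no test was run. Library depth, worked out from the values in M reads (1e6 reads), ran from 9.42 to 33.59 M in Mettl3-deficient libraries, with the shallowest in input (9.42 M) and unbound RNA (12.24 M), against 24.3 to 37.22 M in wild-type libraries. Single libraries could dominate a mean. Among low genes with 60 to 150 mean reads, at least 90% of reads came from 1 library for 42.2% of genes in unbound and 7.2% in m6A-tagged RNA of Mettl3-deficient cells and 4.3% in their input, against 38.3%, 68.4% and 15.5% in the same wild-type fractions. Whether a single library carries a member's mean was not tested. Mettl3 stood at 19.6 RPKM in Mettl3-deficient and 36.4 RPKM in wild-type input, a partial check, since undeleted exons of the gene can still yield reads. The summed level of 10 HSC marker genes was 964 RPKM in Mettl3-deficient and 879 RPKM in wild-type input. All 7 neutrophil marker genes were at least 2-fold lower in Mettl3-deficient input, with sums of 860 and 5980 RPKM in Mettl3-deficient and wild-type input. Other markers were lower as well. Both erythroid and both T and NK cell genes compared were 2-fold lower, with median log2 ratios of -2.66 and -2.35, as were 1 of 3 monocyte and macrophage genes (Ly6c2, -3.68) and Cd48 (-1.34), which the sort excludes. Of the other monocyte and macrophage genes compared, Lyz2 was lower (-0.84) and C1qb higher (0.79), each short of 2-fold. The 1 B cell gene compared, Cd79b, had a log2 ratio of 0.10. The part of these cells' RNA in the results below was not tested, and fewer cells of a type cannot be told apart from less RNA per cell.

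In input RNA Oasl1 and Oas1a stood 2-fold or more higher in Mettl3-deficient than in wild-type HSCs. Eif2ak2, Oasl2 and Mavs were higher by less than 2-fold, and the RNA helicases and Adar were close to equal. Folds here are log2 ratios of RPKM + 1, and a gene is counted as higher or lower from a 2-fold difference. Of the 7 members compared, 2 were 2-fold higher (Oasl1 and Oas1a), against 2.38% of all genes compared, and none was 2-fold lower, against 6.67% of all genes. Oasl1 was under 10 RPKM in all 3 wild-type groups and reached the minimum only through the Mettl3-deficient ones. Its place among the genes compared thus depends on the difference itself, and the count supports nothing on its own. Eif2ak2 averaged under 10 RPKM over the wild-type groups (11.9, 1.88 and 13.3 RPKM in input, unbound and m6A-tagged RNA). It passed only through the Mettl3-deficient ones. Ddx58 averaged under 10 RPKM over the Mettl3-deficient groups (14.3, 1.18 and 14.2 RPKM in the same order) and passed only through the wild-type ones. The median of the 7 rests in part on these members. The median log2 ratio was 0.52 for all 9 members and 0.64 for the 7, and that of all genes compared was -0.05. Of all 9 members, 7 had a ratio above 0, as did 45.8% of all genes compared.

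**Figure D1:**
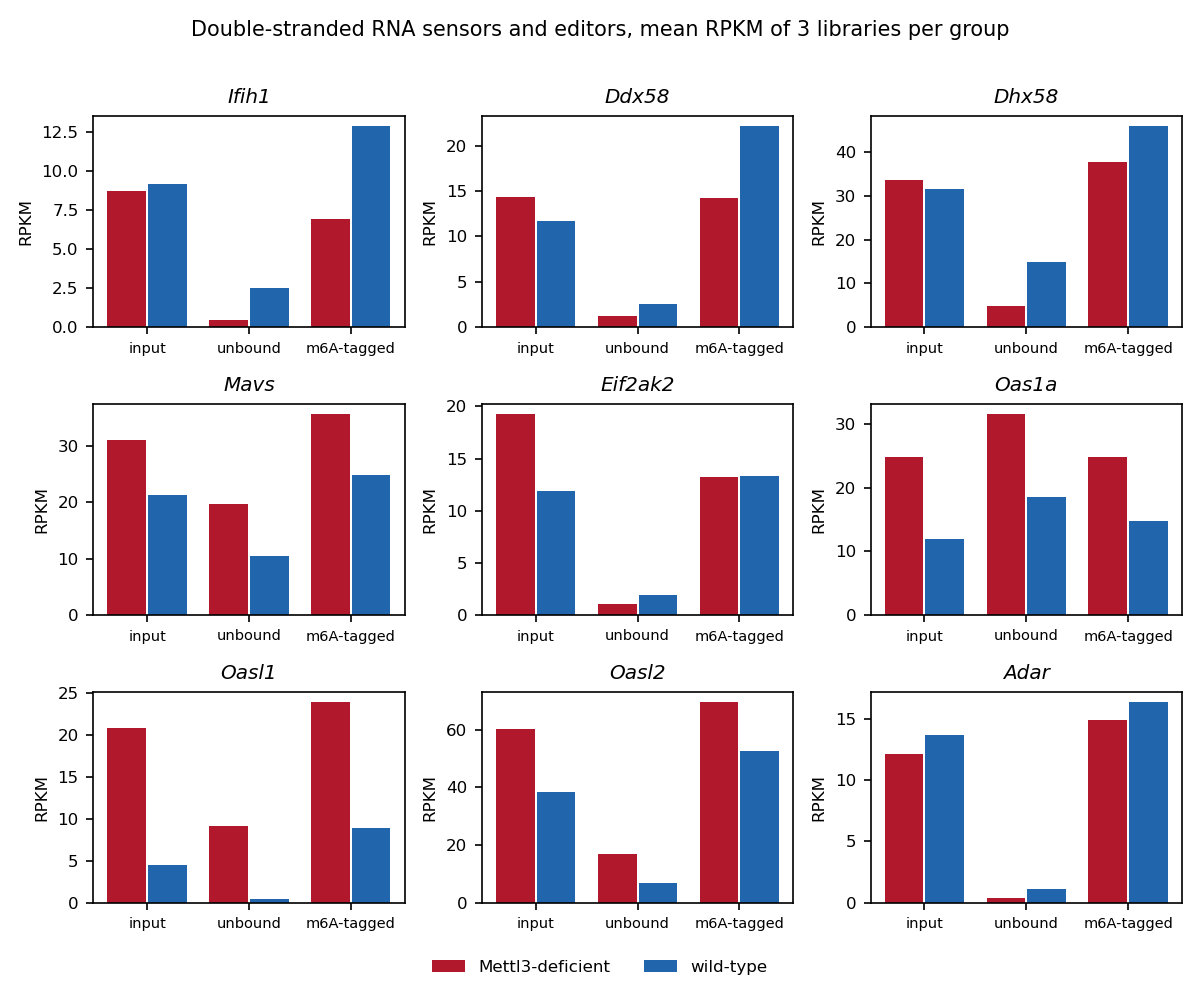
Level of each of the 9 genes in RPKM (vertical axes, linear, each with its own range) in input, unbound and m6A-tagged RNA, with Mettl3-deficient bars in red to the left of wild-type bars in blue; each bar is 1 deposited mean of 3 libraries and has no error bar. Mavs, Oas1a, Oasl1 and Oasl2 were higher in all 3 Mettl3-deficient fractions, and 8 of the 9 genes had their lowest bar of each genotype in the unbound fraction.

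Oasl1, an OAS-like protein with no synthetase activity that restrains translation of the Irf7 mRNA in mice, had the widest gap of the 9 genes. Oasl1 (gene 231655, chr5:114923143-114937911) was at 20.9 RPKM in Mettl3-deficient input and 4.47 RPKM in wild-type input, a log2 ratio of 2.01 that exceeded those of 99.6% of the genes compared. It was also higher in Mettl3-deficient unbound RNA, at 9.18 RPKM against 0.492 RPKM in wild-type unbound RNA. In m6A-tagged RNA it stood at 24 RPKM in Mettl3-deficient and 8.88 RPKM in wild-type cells. It was the 1 member past 2-fold in all 3 fractions, with log2 ratios of 2.01, 2.77 and 1.34 in input, unbound and m6A-tagged RNA. The unbound ratio, against a wild-type level near 0, was 3.97 with 0.1 RPKM and 1.37 with 5 RPKM added.

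Oas1a, an oligoadenylate synthetase (gene 246730, chr5:120896256-120907544), was at 24.9 RPKM in Mettl3-deficient and 11.9 RPKM in wild-type input. Its log2 ratio of 1.00 sits at the 2-fold line. The unbound levels were 31.7 RPKM in Mettl3-deficient and 18.6 RPKM in wild-type cells, and the m6A-tagged levels 24.9 and 14.8 RPKM in Mettl3-deficient and wild-type cells. The ratio was positive in each fraction but reached 2-fold in input only. The Oas1 genes are a cluster of near-identical copies, and reads may be split between them by a counting rule that no source used here gives. Of the copies, picked out after their values were seen, Oas1b was at 8.28 RPKM in Mettl3-deficient and 6.24 RPKM in wild-type input, and Oas1g at 4.93 and 3.19 RPKM in Mettl3-deficient and wild-type input. Oas1c ran the other way, at 4.08 RPKM in Mettl3-deficient and 5.57 RPKM in wild-type input. Oas1d, Oas1e, Oas1f and Oas1h were all under 0.05 RPKM in every group.

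Oasl2, the neighbour of Oasl1 on chromosome 5 (gene 23962, chr5:114896926-114912245) and an OAS-like protein that keeps synthetase activity, was the most abundant of the 9 genes in input and m6A-tagged RNA of both genotypes. It was at 60.4 RPKM in Mettl3-deficient and 38.4 RPKM in wild-type input, a log2 ratio of 0.64. In unbound RNA it was 2-fold higher, with 17.1 RPKM in Mettl3-deficient and 6.78 RPKM in wild-type cells. In m6A-tagged RNA it was at 69.8 RPKM in Mettl3-deficient and 52.5 RPKM in wild-type cells, a log2 ratio of 0.40. All 3 OAS-type members were thus on the higher side in Mettl3-deficient cells in every fraction, by amounts that ran from 0.40 to 2.77 on the log2 scale.

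The helicases had near-equal input levels in both genotypes and lower levels in the Mettl3-deficient unbound and m6A-tagged fractions. Ddx58 (gene 230073, chr4:40203777-40239825) was at 14.3 RPKM in Mettl3-deficient and 11.7 RPKM in wild-type input, and at 1.18 and 2.52 RPKM in Mettl3-deficient and wild-type unbound RNA. Its m6A-tagged level was 14.2 RPKM in Mettl3-deficient and 22.2 RPKM in wild-type cells, a log2 ratio of -0.61. The direction in m6A-tagged RNA was thus opposite to that in input.

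Dhx58 (gene 80861, chr11:100694884-100704271) was the most abundant helicase, at 33.6 RPKM in Mettl3-deficient and 31.6 RPKM in wild-type input. It was lower in unbound RNA by more than 2-fold, with 4.87 RPKM in Mettl3-deficient and 15 RPKM in wild-type cells. The m6A-tagged levels were 37.7 RPKM in Mettl3-deficient and 46.1 RPKM in wild-type cells. Ifih1 (gene 71586, chr2:62595618-62646255) was the least abundant of the 3, at 8.72 RPKM in Mettl3-deficient and 9.18 RPKM in wild-type input. Its unbound level was 0.481 RPKM in Mettl3-deficient and 2.47 RPKM in wild-type cells, and its m6A-tagged level 6.92 and 12.9 RPKM in Mettl3-deficient and wild-type cells. All 3 helicases had negative log2 ratios in both antibody fractions, from -1.44 to -0.28.

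Mavs, the adaptor that both sensing helicases signal through (gene 228607, chr2:131234063-131248025), was higher in Mettl3-deficient cells by a similar amount in input and m6A-tagged RNA. It was at 31.1 RPKM in Mettl3-deficient and 21.4 RPKM in wild-type input, at 19.8 and 10.4 RPKM in Mettl3-deficient and wild-type unbound RNA, and at 35.8 and 24.9 RPKM in Mettl3-deficient and wild-type m6A-tagged RNA. The log2 ratios were 0.52, 0.87 and 0.51 in that order of fractions, each short of 2-fold.

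Eif2ak2, the gene of PKR (gene 19106, chr17:78850504-78882572), was higher in Mettl3-deficient input only. It was at 19.3 RPKM in Mettl3-deficient and 11.9 RPKM in wild-type input, a log2 ratio of 0.65. In unbound RNA it was at 1.04 RPKM in Mettl3-deficient and 1.88 RPKM in wild-type cells, and in m6A-tagged RNA at 13.2 and 13.3 RPKM in Mettl3-deficient and wild-type cells. The editor gene Adar (gene 56417, chr3:89714469-89753455) was lower in every Mettl3-deficient fraction, by little in input and m6A-tagged RNA. Adar was at 12.1 RPKM in Mettl3-deficient and 13.7 RPKM in wild-type input, at 0.411 and 1.14 RPKM in Mettl3-deficient and wild-type unbound RNA, and at 14.9 and 16.4 RPKM in Mettl3-deficient and wild-type m6A-tagged RNA. Its log2 ratios were -0.18, -0.60 and -0.13 in that order, and the unbound one was -1.28 with 0.1 RPKM added in place of 1 RPKM.

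In unbound RNA, 2 of the 7 members compared were 2-fold higher in Mettl3-deficient cells (Oasl1 and Oasl2) against 19.7% of all genes, and 1 was 2-fold lower (Dhx58) against 22.7% of all genes. These shares leave the members close to the background. In m6A-tagged RNA 1 of the 7 was 2-fold higher (Oasl1) against 6.02% of all genes, and none was 2-fold lower, against 7.15% of all genes. The median log2 ratio of all 9 members was -0.50 in unbound and -0.01 in m6A-tagged RNA, with 5 of 9 below 0 in each. That of the 7 compared was 0.74 and 0.40, so the median in unbound RNA changes sign with the minimum, and that of all genes was 0.02 and -0.01.

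**Figure D2:**
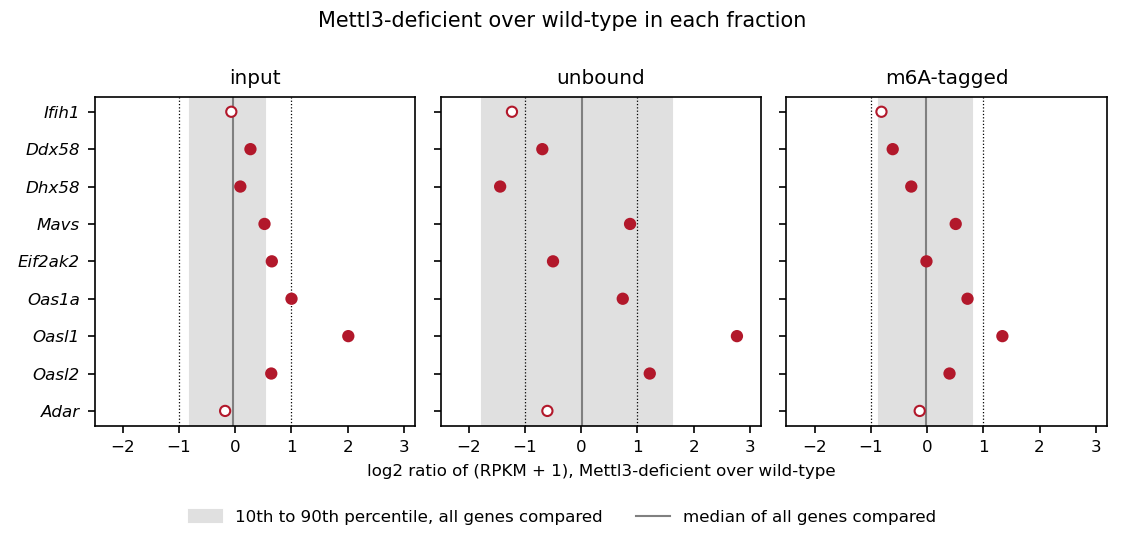
Log2 ratio of RPKM + 1, Mettl3-deficient over wild-type (horizontal axis), for the 9 genes in each fraction; filled points are members compared, open points are Ifih1 and Adar, the grey band spans the 10th to 90th percentile of all genes compared, the grey line is their median and dotted lines mark 2-fold. In input 4 members compared lie right of the band (Oasl1, Oas1a, Eif2ak2 and Oasl2), and in unbound RNA, where the band is widest, Oasl1 alone does. Oasl1 and Eif2ak2 reached the minimum mean only through the Mettl3-deficient groups, so their place among the members compared depends on the difference itself.

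The m6A-tagged fraction held all 9 genes at a higher level than the input in wild-type HSCs, though by less than 2-fold. The log2 ratio of m6A-tagged over input was 0.87 for Ddx58, 0.85 for Oasl1, 0.53 for Dhx58, 0.45 for Ifih1 and 0.44 for Oasl2. It was 0.29 for Oas1a, 0.24 for Adar, 0.21 for Mavs and 0.15 for Eif2ak2. None of the 7 members compared was 2-fold higher, against 3.69% of all genes, or 2-fold lower, against 5.23% of all genes. Their median was 0.44, that of all genes 0.06, and 53.4% of all genes lay above 0. Under median-ratio scaling the shares of all genes were 2.73% higher and 6.23% lower.

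In Mettl3-deficient HSCs the same ratio lay nearer to 0 or below it for most members. It was -0.52 for Eif2ak2, -0.29 for Ifih1, -0.02 for Ddx58 and 0.00 for Oas1a, which became -0.12 with median-ratio and -0.10 with upper-quartile factors. It was 0.16 for Dhx58, 0.19 for Oasl1, 0.20 for Mavs, 0.21 for Oasl2 and 0.28 for Adar. None of the 7 was 2-fold higher, against 1.37% of all genes, or 2-fold lower, against 1.45% of all genes, and their median was 0.16 beside 0.12 for all genes. With median-ratio scaling, which lowers this comparison by 0.12 for all genes, 0.81% of genes were 2-fold higher and 2.07% lower. The ratio was also narrower across all genes in Mettl3-deficient cells, with a standard deviation of 0.44 against 0.6 in wild-type cells. The part of this narrowing in the members' ratios was not tested.

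The Mettl3-deficient ratio minus the wild-type one was below 0 for 8 of the 9 genes, beside 52.4% of all genes compared above 0, with the widest gaps at the helicases Ddx58 (-0.88) and Ifih1 (-0.74), at Eif2ak2 (-0.66) and at Oasl1 (-0.66). It was -0.37 for Dhx58, -0.29 for Oas1a, -0.24 for Oasl2 and -0.01 for Mavs. Adar, at 0.04, turned to -0.02 with median-ratio factors and to -0.05 with upper-quartile ones. None of the 7 members compared passed 2-fold, against 7.31% of all genes on the higher side and 2.91% on the lower side. The ratio of Ddx58 was lower than those of all but 4.6% of the genes compared. Ddx58 reached the minimum mean only through the wild-type groups, where its m6A-tagged level was the higher one, so this place depends in part on the difference. The median was -0.37 for the 7 members and 0.04 for all genes. Under upper-quartile scaling 5.43% of all genes were higher and 4.48% lower. Because the m6A-tagged and input columns of each genotype enter both this difference and the comparisons above, these are not separate results.

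**Figure D3:**
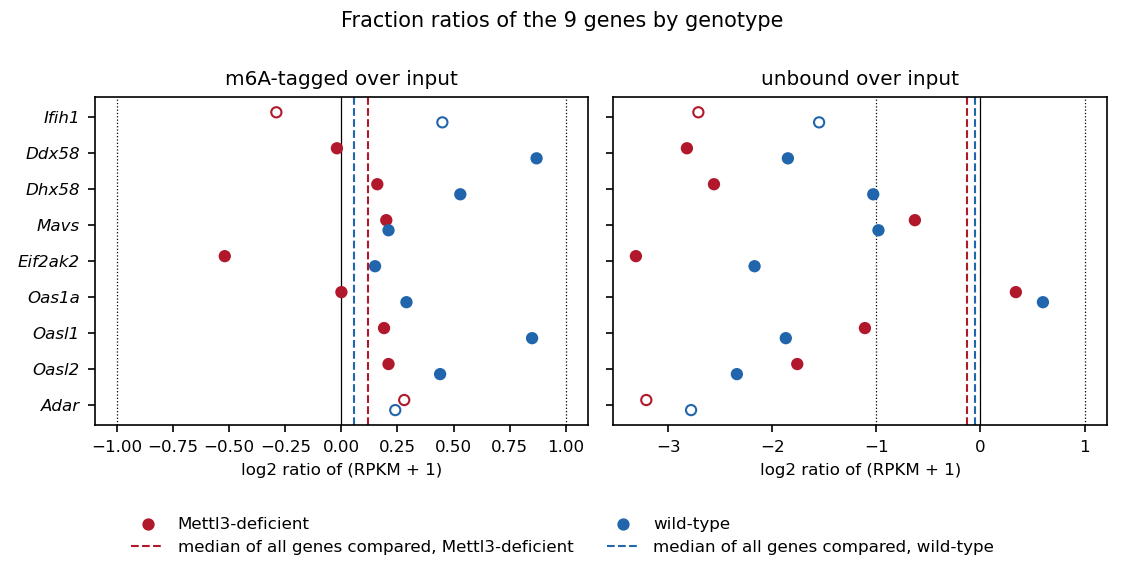
Log2 ratio of RPKM + 1 (horizontal axes, which differ between the panels) of m6A-tagged over input RNA and of unbound over input RNA for the 9 genes, with Mettl3-deficient points in red above wild-type points in blue; open points are Ifih1 and Adar, dashed lines are the medians of all genes compared and dotted lines mark 2-fold. On the m6A-tagged panel the wild-type point lies right of the Mettl3-deficient one for 8 of 9 genes, and on the unbound panel Oas1a alone lies right of 0.

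Of these genes, 8 of 9 were lower in the unbound fraction than in the input of both genotypes, 7 of them by 2-fold or more, while Mavs fell short of 2-fold and Oas1a was higher. In Mettl3-deficient HSCs the log2 ratio of unbound over input was -3.31 for Eif2ak2, -3.21 for Adar, -2.82 for Ddx58, -2.71 for Ifih1 and -2.56 for Dhx58. It was -1.76 for Oasl2, -1.11 for Oasl1 and -0.63 for Mavs, and 0.34 for Oas1a. Of the 7 members compared, 5 were 2-fold lower, against 29.5% of all genes, and none was 2-fold higher, against 18.5% of all genes. The median was -2.56 for all 9 members and -1.76 for the 7, beside -0.13 for all genes.

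In wild-type HSCs the ratio was -2.78 for Adar, -2.34 for Oasl2, -2.17 for Eif2ak2, -1.87 for Oasl1, -1.85 for Ddx58 and -1.55 for Ifih1. It was -1.03 for Dhx58, -0.98 for Mavs and 0.60 for Oas1a. Again 5 of the 7 were 2-fold lower, against 25.5% of all genes, and none was 2-fold higher, against 4.61% of all genes. The median was -1.85 for the 9 as for the 7, beside -0.05 for all genes. Upper-quartile scaling moved the shares of all genes to 34.9% lower and 12.9% higher in Mettl3-deficient cells, and to 30.01% lower and 0.70% higher in wild-type cells.

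Between genotypes, the difference in unbound over input (Mettl3-deficient minus wild-type) was -1.53 for Dhx58, -1.16 for Ifih1, -1.15 for Eif2ak2 and -0.96 for Ddx58. With 0.1 RPKM added in place of 1 RPKM these were -1.69, -2.07, -1.49 and -1.32, so their order depends on the addition. The OAS-like genes ran the other way, with 0.77 for Oasl1 and 0.58 for Oasl2, although that of Oasl1 was 1.77 with 0.1 RPKM added and turned to -0.09 with 5 RPKM added. Of the 7 members compared, 2 were 2-fold lower (Dhx58 and Eif2ak2), against 16.9% of all genes, and none was 2-fold higher, against 18.8% of all genes.

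Genomic span moved with this ratio across genes. Spearman's rho between the span from RefSeq and the unbound over input ratio was -0.47 for Mettl3-deficient and -0.20 for wild-type cells across 6288 genes, which share libraries and are not independent replicates. Ifih1, Adar, Ddx58 and Eif2ak2 have long spans, at percentiles 86.7, 80.8, 78.7 and 75.2 of these genes. Oasl2, Oasl1, Mavs, Oas1a and Dhx58 lie between percentiles 32.1 and 48.5. The part of span in the members' ratios was not tested.

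Set against each other directly, the antibody fractions gave the following. The log2 ratio of m6A-tagged over unbound RNA in Mettl3-deficient cells was highest for Adar (3.49), Ddx58 (2.80), Eif2ak2 (2.80) and Dhx58 (2.72), and negative for Oas1a alone (-0.34). In wild-type cells it was highest for Adar (3.02), Oasl2 (2.78), Oasl1 (2.73) and Ddx58 (2.72), and again negative for Oas1a alone (-0.31). Of the 7 members compared, 5 (Mettl3-deficient) and 6 (wild-type) were 2-fold higher, against 33.7% and 31.5% of all genes. None was 2-fold lower, against 16.9% of all genes (Mettl3-deficient) and 19.3% (wild-type). Under median-ratio scaling the Mettl3-deficient shares were 27.5% higher and 22.8% lower. The Mettl3-deficient minus wild-type difference passed 2-fold upwards for Dhx58 (1.16), against 23.7% of all genes, and downwards for Oasl1 (-1.43), against 22.8% of all genes.

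By level, the order in Mettl3-deficient input was Oasl2, Dhx58, Mavs, Oas1a, Oasl1, Eif2ak2, Ddx58, Adar and Ifih1, running from 60.4 to 8.72 RPKM. In wild-type input the order was Oasl2, Dhx58, Mavs, Adar, Oas1a, Eif2ak2, Ddx58, Ifih1 and Oasl1, running from 38.4 to 4.47 RPKM. Oasl1 thus stood at place 5 in Mettl3-deficient and last in wild-type input. Without replicate values, whether neighbours in these orders differ beyond their spread cannot be given. Oas1a led the unbound fraction of both genotypes.

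The genes whose 6 values most resembled those of a member were found by the root mean square distance between log2(RPKM + 1) profiles, each centred on its own mean, over the 6 groups and among the genes compared. For Oasl1 these were Cish (0.156), Igtp (0.214) and Socs2 (0.232), where Cish and Socs2 encode suppressors of cytokine signalling and Igtp an interferon-induced GTPase. Cish stood at 132 RPKM in Mettl3-deficient and 31.8 RPKM in wild-type input. For Oas1a the nearest was Il2rg (0.085), the shared chain of several interleukin receptors, at 171 RPKM in Mettl3-deficient and 87.4 RPKM in wild-type input. For Mavs it was Tap2 (0.069), a peptide transporter of antigen presentation, at 242 and 175 RPKM in Mettl3-deficient and wild-type input.

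Next to these lay Doc2g (0.105) and Tmem161a (0.112) for Oas1a, and Slc25a45 (0.097) and Bpgm (0.098) for Mavs. The nearest to Oasl2 were Cant1 (0.113), Prkch (0.114) and C80913 (0.117). Those of Ddx58 were Aggf1 (0.106), Hk1 (0.135) and Paxip1 (0.138), and those of Dhx58 were Adck3 (0.122), Tbc1d22b (0.123) and Ints3 (0.131). Eif2ak2 lay nearest to the fatty acid importer gene Cpt1a (0.119), Hnrnpm (0.165) and Slc16a1 (0.212). Among the members themselves, Ddx58 and Eif2ak2 were the closest pair at 0.330, where the median distance from Ddx58 to all genes was 1.24. Many other genes lay nearer, with Eif2ak2 at rank 90 from Ddx58 and Ddx58 at rank 48 from Eif2ak2 among 6294 genes. For the other members the nearest member lay at rank 231 (Dhx58) to rank 2112 (Oas1a).

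The other genes of the response were read from 6 lists. In the list of antiviral RNA helicase signalling, 1 of 7 genes compared was 2-fold higher in Mettl3-deficient input and none lower, with a median log2 ratio of 0.40. This gene was Irf7, a transcription factor that induces interferon genes, at 61.5 RPKM in Mettl3-deficient and 23.5 RPKM in wild-type input. Of the OAS and RNase L list only Abce1, an RNase L inhibitor, and Pde12, which degrades oligoadenylates, were abundant enough to be compared, and neither passed 2-fold. Among eIF2 alpha kinases and response genes 1 of 7 was 2-fold lower and none higher, with a median of -0.21. This gene was Ddit3, a stress-induced transcription factor, at 26.6 RPKM in Mettl3-deficient and 54.7 RPKM in wild-type input.

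Of 9 other double-stranded RNA binding and editing genes compared, 1 was 2-fold higher and none lower, with a median of 0.04. It was Zbp1, a sensor of Z-form nucleic acid that shares a domain type with Adar, at 22.1 RPKM in Mettl3-deficient and 10.2 RPKM in wild-type input. Zbp1 was at 7.28 and 7.81 RPKM in wild-type unbound and m6A-tagged RNA, and reached the minimum mean only through the Mettl3-deficient groups. Its place among the genes compared thus depends on the difference itself. In the interferon receptor list 1 of 9 was 2-fold higher and none lower, with a median of 0.41. It was Irf1, a transcription factor of the interferon response, at 154 RPKM in Mettl3-deficient and 62.3 RPKM in wild-type input. Of 10 interferon-stimulated genes compared, 4 were 2-fold higher and none lower, with a median of 0.49, namely Lgals3bp, Rtp4, Gbp7 and Ifitm3. Ifitm3, a membrane protein that blocks viral entry, was at 1250 RPKM in Mettl3-deficient and 610 RPKM in wild-type input. The background is the 2.38% of all genes that were higher and the 6.67% that were lower. Ly6a, which encodes the Sca1 used in the sort and is itself induced by interferon, was at 348 RPKM in Mettl3-deficient and 118 RPKM in wild-type input, and its part in these values was not tested.

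**Figure D4:**
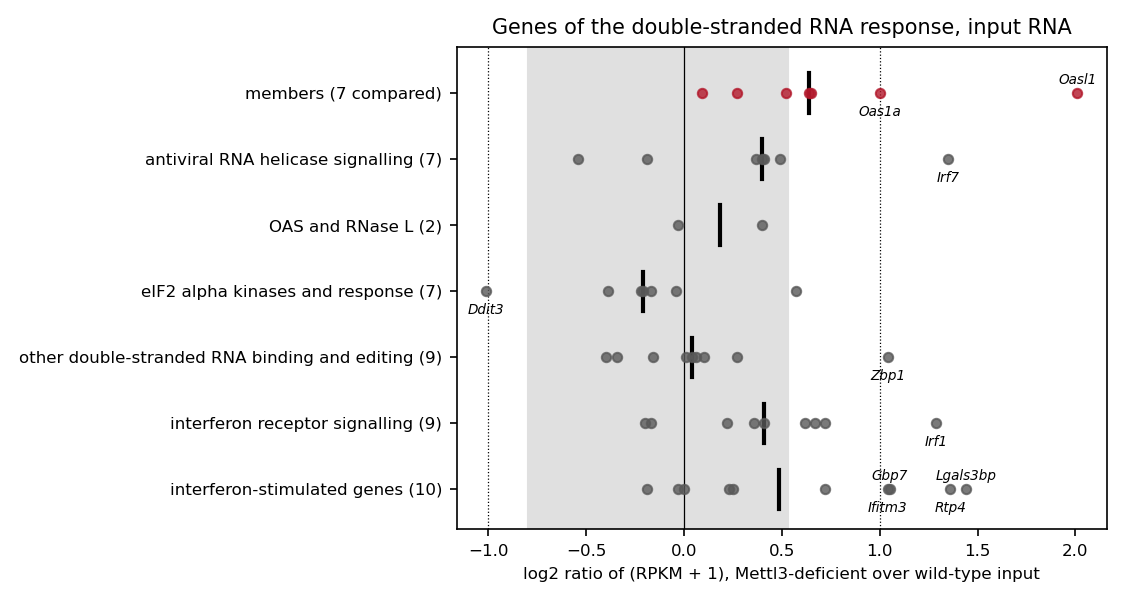
Log2 ratio of RPKM + 1, Mettl3-deficient over wild-type input (horizontal axis), for the members (red) and the genes of 6 lists (grey), where each point is 1 of the genes compared, numbers in brackets count the points, black bars are medians, the grey band is the 10th to 90th percentile of all genes compared and names mark genes past 2-fold. The median of the 7 members compared is 0.64, and the list medians run from -0.21 to 0.49. The 7 include Oasl1 and Eif2ak2, which reached the minimum only through the Mettl3-deficient groups, and Ddx58, which reached it only through the wild-type ones. They leave out Ifih1 (-0.07) and Adar (-0.18). The median of all 9 members is 0.52, and the contrast with the lists was not tested.

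In the m6A-tagged over input comparison few genes of these lists passed 2-fold. In Mettl3-deficient cells Socs1, an inhibitor of interferon receptor signalling, had a log2 ratio of 1.29, and Ppp1r15a, which promotes dephosphorylation of eIF2 alpha, 1.01. Socs1 was under 10 RPKM in every wild-type group and reached the minimum mean only through the Mettl3-deficient ones. In wild-type cells Rtp4 (1.60) and Cmpk2 (1.39), both interferon-stimulated, were higher, and the RNA helicase gene Dhx9 was lower (-1.03). Tlr3, the endosomal receptor of double-stranded RNA, was under 10 RPKM in every group, at 0.454 RPKM in Mettl3-deficient and 0.609 RPKM in wild-type input. Of the 6 plasmacytoid dendritic cell markers, Siglech and Ccr9 were under 1 RPKM in every group. Bst2, which is also interferon-stimulated, ran from 191 to 484 RPKM over the groups. Irf8 was at 3.88 RPKM in Mettl3-deficient and 11.7 RPKM in wild-type input, Tcf4 at 18 and 13.3 RPKM, and Cox6a2 at 0.0934 and 0.876 RPKM in Mettl3-deficient and wild-type input. Their part in the members' values was not tested.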

How the data were processed

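Each genotype has 1 table deposited by the authors, holding an RPKM value per gene for every fraction. Each value is a mean over 3 libraries, after adding 1 read per gene and library, as the numbers themselves show. Per the submitters' processing notes the build was mm10, with Picard and edgeR among the tools, their roles unstated. The aligner is not given in the sources used here. Tables were joined on gene ID, since some gene names had been turned into dates.

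From these, log2((RPKM + 1)/(RPKM + 1)) was computed with Python 3.11.15, numpy 2.4.6 and pandas 2.3.3, which understates changes of low genes. Genes averaging 10 RPKM or more were compared and called at 2-fold. With 1 pooled column per group no test or replicate error was possible. Ratio and depth steps were checked on simulated data. Depth was solved from whole reads of low genes: 11178 of 12036 values tried (92.9%) had a unique solution. Reads of single libraries could not be solved for any of the 9 members. Gene coordinates, spans and promoter windows are from RefSeq (GRCm38.p6).

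The genes named are the 9 members, list genes past 2-fold in input or in m6A-tagged over input (at most 5 per list and comparison), the 3 genes most like each member, Mettl3 and marker genes. Oas1 copies, Abce1, Pde12, Tlr3, Isg15 and Mx1 were picked out after their values were seen. The members and lists were chosen with earlier results of these data known, and a gene of the interferon receptor list is not reported here. Alternatives were an added 0.1 or 5 RPKM, no minimum or 50 RPKM, median-ratio or upper-quartile scaling, and a 1.5-fold call.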

Additional observations from a re-analysis of the deposited data

How the results depend on the processing

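With 5 RPKM added in place of 1, the count of members past 2-fold went to 1 instead of 2 for Mettl3-deficient over wild-type input, where Oas1a sits at the line. It went to 3 instead of 5 for unbound over input in wild-type cells, to 1 instead of 2 for the genotype difference of that ratio, and to 0 instead of 2 for the genotype difference of m6A-tagged over unbound. With 0.1 RPKM added the genotype difference of unbound over input gave 4, with Oasl1 then 2-fold higher. At a 1.5-fold call the counts were 4 in input, 6 in unbound and 3 in m6A-tagged RNA between genotypes, against 2, 3 and 1 at 2-fold, where the shares of all genes past 1.5-fold (higher and lower) were 8.63% and 15.31%, 30.93% and 31.87%, and 17.59% and 17.92%. They were 2 for m6A-tagged over input in wild-type cells and 3 for its genotype difference, against 0 each, and 4 for that of unbound over input, with all-gene shares of 17.22% and 15.42%, 19.21% and 12.76%, and 32.34% and 26.48%. The other counts stayed within 1.5 times. Single log2 ratios moved by more than 1.5-fold in 21 of 108 cases with 0.1 RPKM and in 25 of 108 with 5 RPKM added, and in 0 of 108 under either scaling. The sign of m6A-tagged over unbound between genotypes turned with 5 RPKM for Ifih1 (0.42 to -0.14) and Ddx58 (0.08 to -0.22). Under scaling, the median of all genes shifted by more than 0.1 in some comparisons, by up to -0.28 for m6A-tagged over unbound in Mettl3-deficient cells. A minimum of 50 RPKM left no member to compare. No paired analysis was possible because each group is 1 mean column without replicate numbers. Leaving out each library, and values of single libraries, were not run for the same reason. The cause of these movements was not tested, apart from the larger addition pulling low values together. Unbound levels of Ifih1, Adar, Ddx58 and Eif2ak2 (0.411 to 2.52 RPKM), and of Oasl1 in wild-type cells (0.492 RPKM), are low, so their ratios depend on the added RPKM.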

Other observations

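Beyond the members, values of the interferon lists outside the input are as follows. In unbound RNA 5 of 10 interferon-stimulated genes compared were 2-fold higher in Mettl3-deficient cells and 1 was lower, against 19.7% higher and 22.7% lower of all genes, with a median log2 ratio of 1.11. In m6A-tagged RNA none of them was 2-fold higher and 1 was lower, against 6.02% higher and 7.15% lower of all genes. This was Cmpk2, at 14.2 RPKM in Mettl3-deficient and 35.7 RPKM in wild-type cells. Of the interferon receptor list, 2 of 9 were higher and 4 lower by 2-fold in unbound RNA of Mettl3-deficient cells, with a median of -0.02. The shares of all genes were 19.7% higher and 22.7% lower. In m6A-tagged RNA 2 of 9 were 2-fold higher (Socs1 and Irf1, chosen after their values were seen) and none lower, with a median of 0.53. Of all genes 6.02% were higher and 7.15% lower. Socs1 was at 27.1 RPKM in Mettl3-deficient and 7.87 RPKM in wild-type m6A-tagged RNA. Socs1 was under 10 RPKM in every wild-type group and reached the minimum mean only through the Mettl3-deficient ones. Its place among the genes compared thus depends on the difference itself.

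Mx1, whose promoter drives the Cre used here, was low in each group, at 2.15 RPKM in Mettl3-deficient and 1.72 RPKM in wild-type input. Isg15, a ubiquitin-like protein induced by interferon, was at 17.0 RPKM in input of both genotypes. In unbound RNA Isg15 was at 32.1 RPKM in Mettl3-deficient and 6.77 RPKM in wild-type cells. Of other interferon-stimulated genes under the minimum mean, Ifit1 was at 13.3 RPKM in Mettl3-deficient and 5.58 RPKM in wild-type input. Ifit3 was at 2.96 and 0.843 RPKM, while Ddx60 was lower, at 3.76 and 5.48 RPKM, in Mettl3-deficient and wild-type input. These genes were named after their values were seen, and none of the levels was tested as a measure of the interferon response.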
